A study of Oryza sativa with 6 samples.

Results

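CYP71P1 and ASMT1 are rice genes of serotonin and melatonin synthesis, set here between leaves of the transgenic line KMD and leaves of its parent, the cultivar Xiushui 11 (XS11). The 2 genes, of 17905 with a probe set, were found by matching their names to the symbols and synonyms of the array's gene annotation. They held 3 of the 57381 probe sets on the array, 2 for CYP71P1 and 1 for ASMT1. Both genes were chosen by their signal in these same arrays, where an earlier look had found them much lower in KMD than in XS11, so their own differences are given as a description without a test. Each line had 3 Affymetrix rice arrays, made from leaf RNA of 30-day seedlings grown in pots in a climate chamber. KMD carries a transgene in the Xiushui 11 background and is known as a Bt rice with a cry1Ab gene, which the labels do not state. KMD is 1 line, so effects of its transgene and of anything else that separates it from XS11 cannot be told apart. The submitters compared the lines to look for genes behind unintended effects of the transformation.

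Plants make serotonin from tryptophan. Tryptophan decarboxylase (TDC) gives tryptamine, and tryptamine 5-hydroxylase, the cytochrome P450 CYP71P1, turns it into serotonin. The rice mutant Sekiguchi lesion lacks this hydroxylase, and the gene is also listed under the synonyms SL and T5H. Serotonin N-acetyltransferases (SNAT) then give N-acetylserotonin, which N-acetylserotonin methyltransferases such as ASMT1 methylate to melatonin. In rice leaves serotonin is known to accumulate in infected and in senescing tissue.

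The brighter probe set of CYP71P1 read 59.8, 66.1 and 68.3 in the KMD arrays, against 302, 296 and 245 in the XS11 arrays (MAS5 intensity, a linear scale). All KMD arrays were low and all XS11 arrays high, and even the lowest XS11 array was 3.59 times the highest KMD array. The means were 64.7 ± 4.41 in KMD and 281 ± 31.0 in XS11 (SD, n = 3 each), so the KMD mean was 23.1% of the XS11 mean. Taking log2(signal + 11.17), with the 10th percentile of all values as the added 11.17, the difference between KMD and XS11 was -1.94. That scale shrinks differences of dim probe sets. Since these are whole leaves, less transcript per cell and fewer cells that carry it cannot be told apart.

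ASMT1, read by its only probe set, had 16.3, 24.9 and 22.5 in KMD, against 156, 152 and 157 in XS11. The groups lay far apart: the lowest XS11 array was 6.10 times the highest KMD array. The means were 21.2 ± 4.45 in KMD and 155 ± 2.78 in XS11 (SD, n = 3 each), so 13.7% of the XS11 mean was left in KMD. The log2 difference was -2.37. The 3 XS11 arrays were close together, with a coefficient of variation of 1.79%, while those of KMD spread by 21.0%. All KMD values were under 27.7, the lowest mean signal among the tested rice probe sets, so ASMT1 is not shown to be above background in KMD and the size of its difference rests on a dim signal. Its probe set passed the filter on dim probe sets through its XS11 values.

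The other probe set of CYP71P1 was dim in both lines, at 16.5, 16.6 and 19.2 in KMD and 23.2, 19.6 and 22.4 in XS11. The lines did not overlap, but the highest KMD array and the lowest XS11 array were almost equal, with a ratio of 1.02. Its log2 difference was -0.20, in the same direction as the brighter probe set and much smaller. It did not pass the filter on dim probe sets, so 2 of the 3 probe sets passed. The name of this probe set carries A1 in place of S1, and the tables used here do not say which strand it reads.

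**Figure D1:**
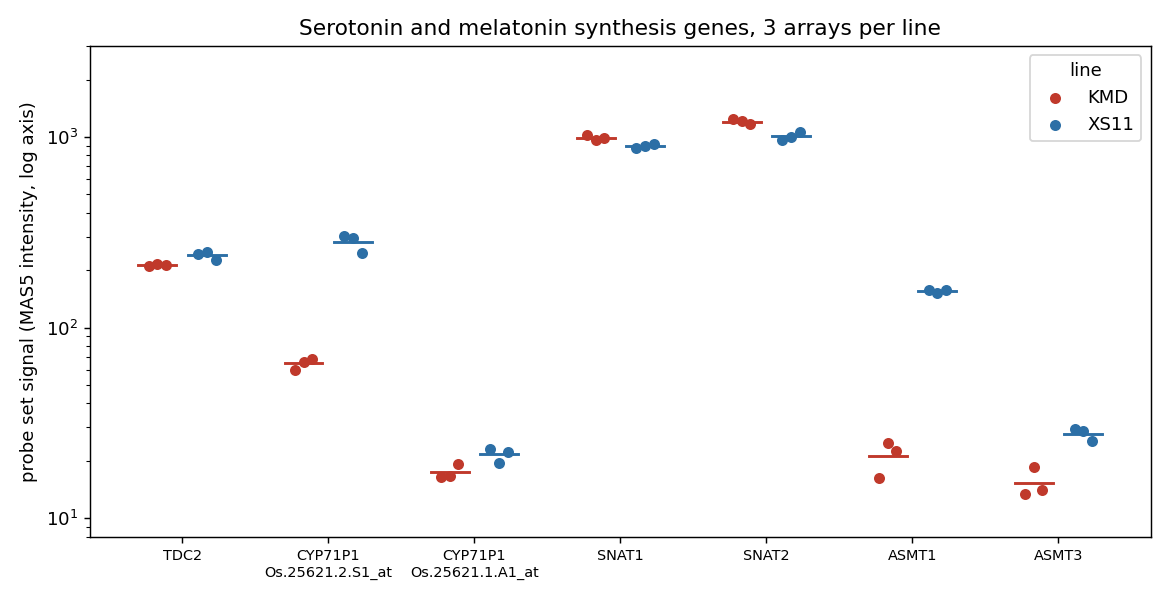
Signal of each array (points) and mean of each line (bars), on a log axis of MAS5 intensity, for the serotonin and melatonin synthesis genes, with KMD left of XS11. The brighter probe set of CYP71P1 (its name ends in S1_at) and ASMT1 show wide gaps between the lines (means of 64.7 in KMD and 281 in XS11, and of 21.2 in KMD and 155 in XS11), while TDC2, SNAT1 and SNAT2 lie close together; levels of different probe sets are not comparable.

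These falls stood against a background in which many genes differed. Of the 34382 probe sets that were tested, 39.7% had a limma adjusted p under 0.05, with 18.1% higher and 21.6% lower in KMD. Arrays of the lines did not overlap, with KMD lower, in 25.7% of tested probe sets, so a gap between the groups is common here. Large falls were rarer, since 1.21% of tested probe sets were at least 2-fold lower in KMD and 0.151% fell by as much as CYP71P1 or more. By size of fall, ASMT1 ranked 27 and CYP71P1 ranked 52 among these probe sets, which is how they came to be chosen and not a result. Across the tested probe sets log2 signals correlated at 0.995 to 0.997 within a line and at 0.974 to 0.976 between lines. The arrays are labelled as biological replicates, but the number of plants behind each is not given, and p-values measure only the spread between these samples.

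The scale of the arrays bears on every small difference below. Poly-A spike-ins are foreign transcripts mixed into the RNA ahead of labelling. Their 36 probe sets all read higher in KMD, on average by 0.62 on the log2 scale, while the median over all probe sets was 0.0042. Centring the arrays on these spike-ins moved the median of the tested probe sets to -0.62. The differences grew to -2.56 for CYP71P1 and -2.99 for ASMT1, and a rise of less than about that median shift turned into a fall. The ratio of 3' to 5' signal of the actin control, which reflects how intact and how fully labelled the RNA was, stood at 5.64 to 5.91 in KMD and 4.30 to 4.88 in XS11. The ratios of GAPDH (3.44 to 3.54 in KMD, 2.61 to 2.99 in XS11) and ubiquitin (1.15 to 1.20 in KMD, 0.958 to 1.01 in XS11) were also higher in KMD, while that of cyclophilin was lower (0.840 to 0.955 in KMD, 1.01 to 1.10 in XS11). The part of these ratios in the results was not tested.

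**Figure D2:**
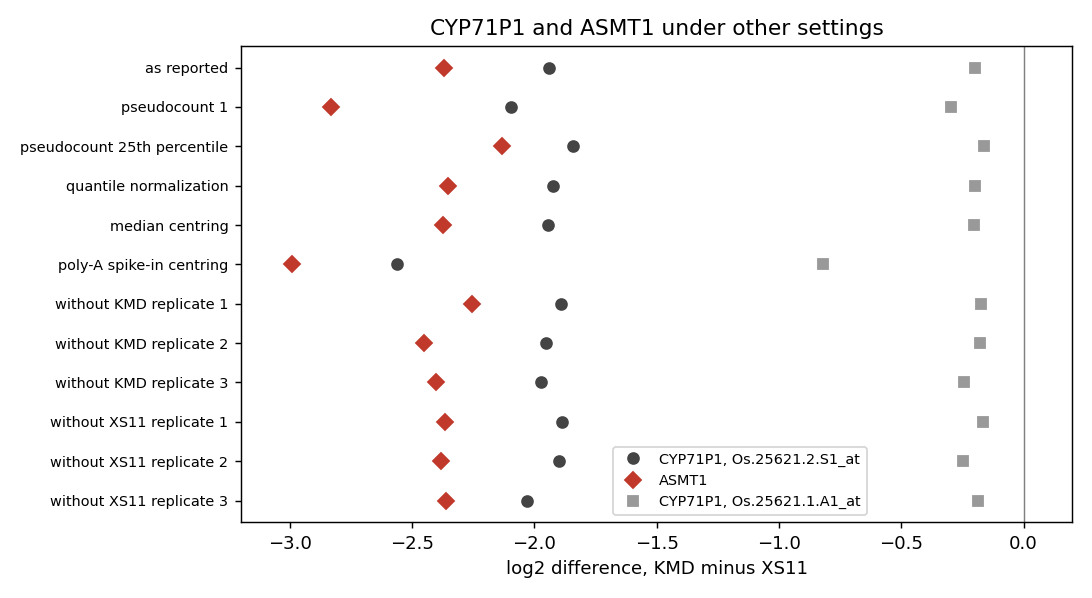
Log2 difference, KMD minus XS11, for the 3 probe sets of CYP71P1 and ASMT1 under each pseudocount, each normalization and without each array. Every point lies below 0, which the lack of overlap between the lines fixed in advance for the pseudocounts and left-out arrays. The brighter probe set of CYP71P1 lies between -2.56 and -1.84 and ASMT1 between -2.99 and -2.13.

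The other genes of serotonin and melatonin synthesis showed no fall of that size. Only 0.151% of all tested probe sets fell by as much as CYP71P1. So few genes were therefore unlikely to hold such a fall, and its absence says little about the pathway. Of 5 further genes of the pathway found by name, 4 had a probe set and 3 were bright enough to test, of which 2 rose and 1 fell, with a median log2 fold change of 0.14. Over all 14788 tested genes, each read by its brightest probe set, 23.2% rose and 33% fell, with a median of -0.03, so 3 calls out of 3 stand beside a background of 56.2%.

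TDC2, listed under the name of a tryptophan decarboxylase and so the step before CYP71P1, read 210, 215 and 214 in KMD against 242, 249 and 226 in XS11. The arrays of the lines did not overlap, but the gap was small. Its log2 fold change was -0.16 (SE 0.05, limma adjusted p = 0.027). The call was lost without KMD replicate 1 (adjusted p = 0.071), KMD replicate 3 (0.067), XS11 replicate 1 (0.073) or XS11 replicate 2 (0.13). It was also lost with quantile normalization (0.082), with median centring (0.067) and without the intensity trend (0.0501). With array weights the call held, at -0.19 (adjusted p = 0.0042). On the spike-in scale TDC2 stood at -0.78 (adjusted p = 4.7e-16).

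The serotonin N-acetyltransferase genes, between the steps of CYP71P1 and ASMT1, went the other way. SNAT1 read 1018, 963 and 992 in KMD against 879, 893 and 918 in XS11, a log2 fold change of 0.14 (SE 0.04, limma adjusted p = 0.0070). Its other probe set gave 0.23 (SE 0.08, adjusted p = 0.029), a call lost with the replicate number as a block (adjusted p = 0.074) and without KMD replicate 2, KMD replicate 3, XS11 replicate 2 or XS11 replicate 3. The call of the brighter probe set was lost without the intensity trend (adjusted p = 0.055). SNAT2 read 1240, 1206 and 1166 in KMD against 968, 1003 and 1055 in XS11, a log2 fold change of 0.25 (SE 0.04, adjusted p = 0.00019). No KMD array overlapped an XS11 array in either gene, yet on the spike-in scale both turned, SNAT1 to -0.48 and SNAT2 to -0.37.

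ASMT3, a second gene listed as an N-acetylserotonin methyltransferase, was dim in both lines. It read 13.4, 18.5 and 14.0 in KMD and 29.2, 28.8 and 25.4 in XS11, with no overlap and a log2 difference of -0.56. It was not tested with the filter on dim probe sets; with no filter it passed (SE 0.10, limma adjusted p = 0.00034). Other TDC genes were not analysed here.

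Upstream, the supply of tryptophan runs from the shikimate pathway through chorismate and anthranilate. The 9 genes found by name belong to the steps up to anthranilate, and none was found for the later steps to tryptophan. Of these 9 genes, 2 rose and 5 fell while 2 did not pass, beside 23.2% rising and 33% falling over all tested genes. The median log2 fold change was -0.25. Anthranilate synthase commits chorismate to tryptophan. Its subunits differed among themselves. ASB2, a beta subunit, read 340, 384 and 368 in KMD against 748, 793 and 819 in XS11. It fell by 1.09 on the log2 scale (SE 0.05, limma adjusted p = 1.8e-09), and with each gene read by its brightest probe set it was the 1 of the 12 tested genes of both lists that fell 2-fold or more. ASB1, the other beta subunit, fell by 0.25 (SE 0.05, adjusted p = 0.0016), with 865, 755 and 814 in KMD against 1016, 982 and 909 in XS11.

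Of the alpha subunits, which bind chorismate, 1 rose and 1 did not pass. ASA1 read 74.6, 77.6 and 79.8 in KMD against 66.6, 59.1 and 55.6 in XS11 and rose, with a log2 fold change of 0.31 (SE 0.08, limma adjusted p = 0.0071), which turned to -0.31 on the spike-in scale. ASA2 did not pass, at -0.16 (95% interval -0.32 to -0.0036, limma adjusted p = 0.10). The interval is not adjusted for the number of tests and holds for this scale only. On the spike-in scale ASA2 fell, at -0.78 (adjusted p = 5.2e-12).

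Of the genes that feed chorismate, DAHPS1, named for the enzyme of the first shikimate pathway step, read 226, 223 and 233 in KMD against 441, 438 and 453 in XS11. It fell by 0.93 on the log2 scale (SE 0.04, limma adjusted p = 2.1e-09). DAHPS2 gave different answers by probe set. Its brighter one, of the type s_at, overlapped between the lines, at 0.02 (95% interval -0.06 to 0.09, adjusted p = 0.78). Its other one, of the type a_at, read 423, 457 and 408 in KMD against 1173, 1160 and 1222 in XS11, a log2 fold change of -1.44 (SE 0.05, adjusted p = 4.0e-11). Probe sets of the types s_at and a_at can take signal from related genes or from several transcripts of a gene, so the level of DAHPS2 is uncertain.

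The shikimate kinase genes split. SK1 rose, with a log2 fold change of 0.47 (SE 0.06, limma adjusted p = 4.4e-05), with 862, 932 and 820 in KMD against 657, 667 and 562 in XS11. On the spike-in scale SK1 turned to -0.16. SK2 fell by 0.53 (SE 0.07) and SK3 by 0.60 (SE 0.05), with no overlap between the lines in either gene.

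**Figure D3:**
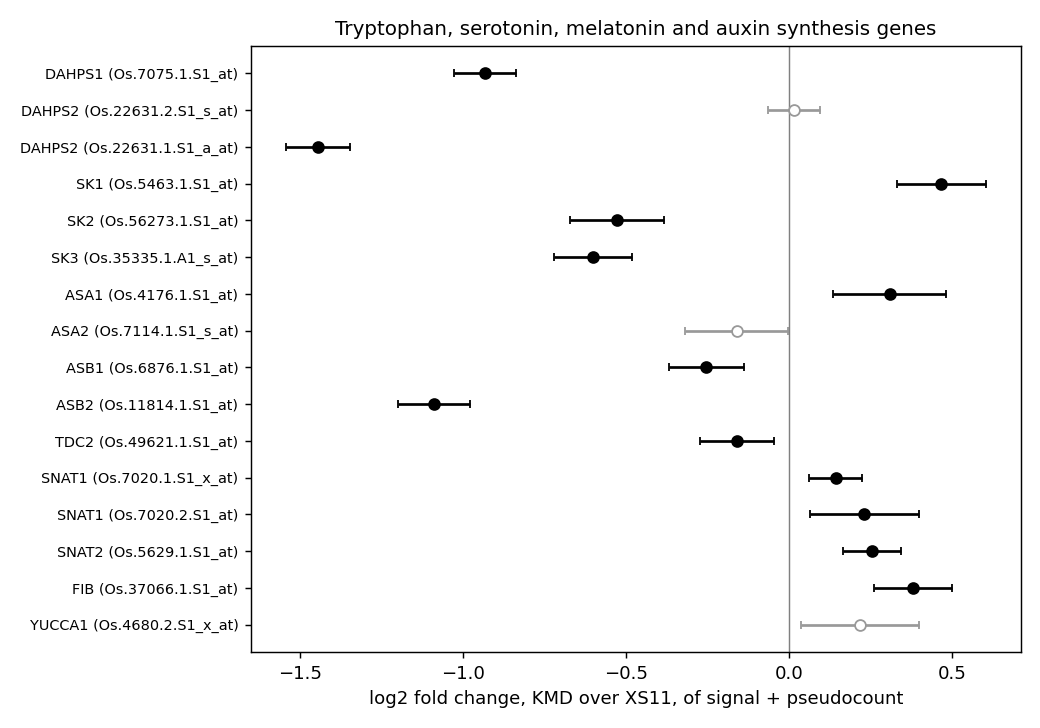
Log2 fold change of signal + 11.17, KMD over XS11, for tested probe sets of the shikimate and tryptophan genes, TDC2, the SNAT genes and the auxin genes FIB and YUCCA1, with unadjusted 95% intervals; filled points passed the adjusted threshold. ASB2 and one of the DAHPS2 probe sets lie furthest left, at -1.09 and -1.44, and TDC2, SNAT1 and SNAT2 lie near 0.

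Tryptophan also feeds auxin synthesis, for which 2 genes were found by name. FIB, a tryptophan aminotransferase, read 198, 214 and 199 in KMD against 157, 149 and 156 in XS11, with no overlap. It rose, with a log2 fold change of 0.38 (SE 0.06, limma adjusted p = 9.1e-05), which turned to -0.24 on the spike-in scale. YUCCA1, a flavin monooxygenase of the next step, did not pass, at 0.22 (95% interval 0.04 to 0.40, limma adjusted p = 0.053).

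Serotonin and tryptamine can be joined to phenolic acids by acyltransferases. The genes named for such amide synthesis were dim: TBT2 read 9.38 to 13.5 in KMD and 11.3 to 13.6 in XS11, overlapping. THT2 read 26.6 to 29.3 in KMD and 15.5 to 21.0 in XS11, and with no filter it gave a log2 fold change of 0.45 (SE 0.10, limma adjusted p = 0.0022). Of the 7 tested genes on the acyltransferase list, 0 rose, 5 fell and 2 did not pass, with a median of -0.71, beside 23.2% rising and 33% falling over all tested genes. All 7 go by AT or HCT names and TBT2 and THT2 are not among them, so these counts do not show whether serotonin conjugation differed. The 4 that fell most were AT5 (-2.37), AT4 (-0.999), HCT2 (-0.95) and AT7 (-0.71). The AT genes belong to a family known for adding phenolic acids to cell wall components.

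Beside their pathway, both genes belong to large enzyme families. Of 22 other cytochrome P450 genes tested, 4 rose, 13 fell and 5 did not pass, with a median log2 fold change of -0.27, beside 23.2% rising and 33% falling over all tested genes. On the spike-in scale 1 rose and 19 fell. Those with the largest changes were CYP76M7 (-1.63), CYP71Z6 (-1.15) and CYP701A8 (-0.88), which act in diterpenoid synthesis, and ABA8OX1 (1.40), which breaks down abscisic acid. CYP71Z6, of the same CYP71 family as CYP71P1, averaged 106 ± 8.53 in KMD and 250 ± 14.3 in XS11 (SD, n = 3 each). Of the other O-methyltransferase genes, ROMT-15, also listed as COA20, fell by 0.67 on the log2 scale (SE 0.03, limma adjusted p = 1.8e-09). ROMT-17 fell by 0.51 (SE 0.07, adjusted p = 4.8e-05) at its brightest probe set. The next brightest gave log2 fold changes of -0.53 (adjusted p = 1.8e-06) and -0.46 (adjusted p = 0.00021), and its dimmest of 4 gave 0.06 (adjusted p = 0.63).

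As serotonin is known from senescing rice leaves, chlorophyll breakdown and senescence genes were read as well. Of 5 genes, 1 rose and 4 fell, with a median log2 fold change of -0.28, beside 23.2% rising and 33% falling over all tested genes. SGR, the stay-green gene of chlorophyll breakdown, averaged 579 ± 15.6 in KMD and 990 ± 20.3 in XS11 (SD, n = 3 each). Its log2 fold change was -0.76 (SE 0.04, limma adjusted p = 3.2e-09). RCCR1, a red chlorophyll catabolite reductase, fell by 0.63 (SE 0.04) and the chlorophyll b reductase NYC1 by 0.28 (SE 0.04). NOL, the partner of NYC1, rose, with a log2 fold change of 0.33 (SE 0.04), which turned to -0.29 on the spike-in scale. Its other probe set gave 0.13 (adjusted p = 0.21 in limma). NAC2, a NAC transcription factor gene by its name, was the weakest call and is given here after its value was seen. It read 81.0, 94.1 and 90.1 in KMD against 106, 93.2 and 122 in XS11, overlapping, with a log2 fold change of -0.24 (SE 0.09, limma adjusted p = 0.047). That call was lost with the replicate number as a block (adjusted p = 0.068), with quantile normalization, array weights or no filter, without the trend, and without any one array other than XS11 replicate 2.

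Both samples read as leaf. The leaf markers CAB2R, GLO1 and RA were bright in every array, and the 4 of 5 leaf markers with a probe set summed to 30176 to 31094 in KMD and 32757 to 32875 in XS11, although RBCS1 was dim (19.5 in KMD and 15.5 in XS11, means). The 3 of 6 root markers with a probe set summed to 236 to 272 in KMD and 346 to 395 in XS11, with Lsi1 at a log2 fold change of -0.53 and IRT1 at -0.50; Lsi2 was dim, and none was at 0. The 5 seed, pollen or anther markers summed to 137 to 161 in KMD and 140 to 176 in XS11. The part of the root markers' shift in the falls of CYP71P1 and ASMT1 was not tested.

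No tested neighbour of CYP71P1 or ASMT1 in the gene order fell by as much as they did. That was likely beforehand for so few genes, since 0.151% of all tested probe sets fell by as much as CYP71P1. In the RefSeq gene order, for each gene the 5 nearest genes with a probe set on either side were read. The tested ones lay 5 to 17 genes away from CYP71P1 and 3 to 10 genes away from ASMT1, so no directly adjacent gene was tested. Of 9 tested neighbours of CYP71P1, 2 rose, 1 fell and 6 did not pass, and their log2 fold changes ran from -0.25 to 0.33. LOC4351940 (0.33) and LOC4351929 (0.15) rose and LOC4351932 (-0.25) fell, against a background of 56.2% called. All XS11 values of LOC4351940 were under 27.7, the lowest mean signal among the tested rice probe sets, so it passed the filter through KMD. Without KMD replicate 2 only LOC4351932 passed, and LOC4351940 was then too dim to be tested. The call of LOC4351932 was lost without KMD replicate 1. That of LOC4351929 was lost without KMD replicate 2, XS11 replicate 1 or XS11 replicate 2, and without the intensity trend (adjusted p = 0.13). On the spike-in scale LOC4351940 (-0.29) and LOC4351929 (-0.47) turned.

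Of 8 tested neighbours of ASMT1, 3 rose, 2 fell and 3 did not pass, so 5 were called beside the background of 56.2%. LOC4346798 averaged 147 ± 1.58 in KMD and 77.1 ± 3.29 in XS11 (SD, n = 3 each), a log2 fold change of 0.84 (SE 0.06, limma adjusted p = 1.9e-07). LOC4346801 (0.55) and LOC4346799 (0.37) also rose, and both turned on the spike-in scale, to -0.07 and -0.25. LOC4346797, the nearest tested gene on that side, averaged 1190 ± 45.6 in KMD and 1854 ± 28.9 in XS11 and fell by 0.64 on the log2 scale (SE 0.04, adjusted p = 1.4e-08). LOC4346790 fell by 0.40 (SE 0.09, adjusted p = 0.0030). All its KMD values were under 27.7, so it passed the filter through XS11, and without XS11 replicate 2 it was too dim to be tested. The gene right before each of CYP71P1 and ASMT1 was dim and overlapped between the lines. LOC4351944 averaged 16.5 in KMD and 15.7 in XS11, and LOC4346794 averaged 24.3 in KMD and 25.7 in XS11.

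**Figure D4:**
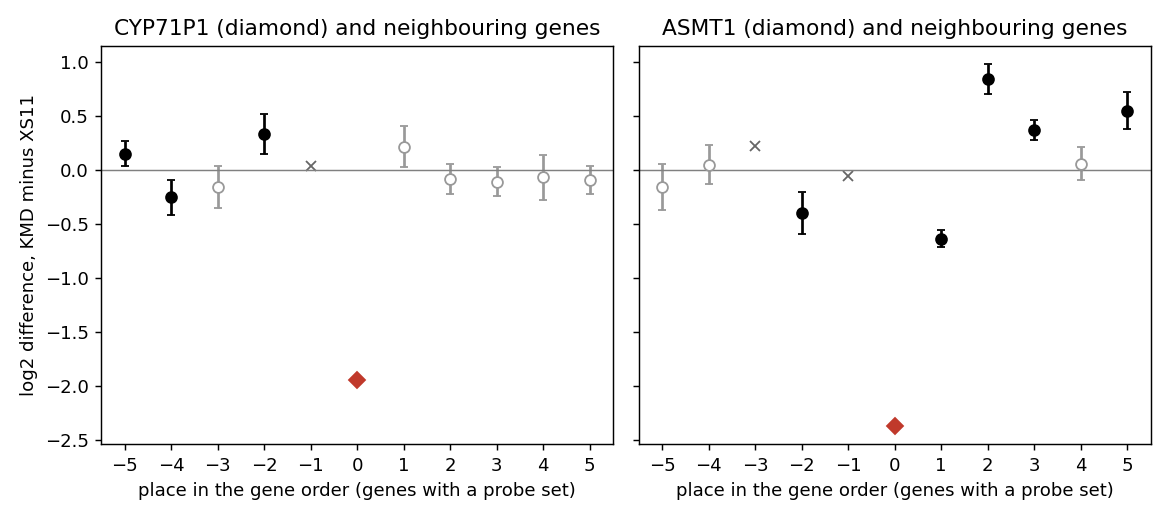
Log2 difference, KMD minus XS11, of CYP71P1 and ASMT1 (diamonds) and of the 5 nearest genes with a probe set on each side, in gene order. Filled points passed the adjusted threshold, open ones did not, crosses were too dim to test and bars are unadjusted 95% intervals. No neighbour lies below -0.64, against -1.94 for CYP71P1 and -2.37 for ASMT1, which were chosen for their falls. Of all tested probe sets, 0.151% fell by as much as CYP71P1.

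Among 2051 tested genes with an informative name, the profile most like that of ASMT1 over the 6 arrays was that of AT5, an acyltransferase of cell wall phenolics, with a root mean square difference of 0.08 between log2 signals centred on their own means. AT5 read 98.6, 109 and 114 in KMD against 606, 596 and 603 in XS11. Next came CYP71P1 itself (0.25), the ammonium transporter AMT3-2 (0.27), the aquaporin NIP1-1 (0.30) and LOC4344277, listed as a peroxidase (0.31). For CYP71P1 the most alike were LOC4344277 (0.11), AMT3-2 (0.14), NIP1-1 (0.14), the MADS-box gene FDRMADS3 (0.14) and the actin-depolymerizing factor ADF-11 (0.15). LOC4344277 read 52.4, 50.3 and 48.8 in KMD against 213, 214 and 198 in XS11. With 2 lines and 3 arrays each, such likeness mostly says that these genes differ between the lines by a similar amount.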

How the data were processed

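Leaf RNA of 6 samples, 3 of KMD and 3 of XS11, was hybridised to Affymetrix rice arrays. What was deposited is a linear microarray intensity for each probe set and array. The submitters' processing notes name MAS5; no source used here gives its version or scaling target. Median intensities ran from 35.5 to 38.7 per array. Detection calls were not analysed here, and the number of arrays limits the precision.

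Of 57381 probe sets, 22436 had 1 gene, 95 several and 34850 none in the platform annotation; those with several or none were not named. Gene IDs matched all 17905 genes to RefSeq's table for assembly ASM3414082v1, which gave names and gene order only. No genome build is named for the values, so no positions are given.

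Signals were transformed as log2(signal + 11.17), the 10th percentile of all values. Tested were the brightest 60% of probe sets by mean log2 signal and the 64 reporter probe sets, without the 123 controls. Lines were compared with limma's two-sided moderated test (lmFit, then eBayes with a trend in intensity; replicate numbers not used as a block), and p-values were adjusted by Benjamini-Hochberg over the whole tested table, at a threshold of 0.05. The script was tested on simulated data.

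Genes and lists were chosen with earlier results of these data known. Lists were matched by symbols and synonyms, since the tables hold no descriptions. ACT1, which matched an actin gene, and OsCyp3, whose name has no P450 subfamily letter, were left out, and OsCyp3 only after its value was seen. Named were all genes of the serotonin and tryptophan lists, up to 4 called genes of each other list, the called neighbours and the 5 most alike named genes; ASMT1 and CYP71P1 are left out of all list counts. The dim amide synthesis genes TBT2 and THT2, further probe sets of a gene, NAC2 and the markers are given beyond that rule. Fits ran in limma 3.58.1 under R 4.3.3, summaries in pandas 2.3.3 and numpy 2.4.6 under Python 3.11.15, and plots in matplotlib 3.10.9.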

Additional observations from a re-analysis of the deposited data

How the results depend on the processing

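CYP71P1 and ASMT1 were lower in KMD under every pseudocount and normalization tried and without any one array. Both were chosen for this fall, and no KMD array overlapped an XS11 array in any of their probe sets. Another pseudocount or a left-out array could therefore not turn the sign, and only the size of the differences could change. With a pseudocount of 1 the log2 differences were -2.10 for CYP71P1, -2.83 for ASMT1 and -0.30 for the dim probe set of CYP71P1; with the 25th percentile (18.5) ASMT1 stood at -2.13. With spike-in centring they were -2.56, -2.99 and -0.82. Leaving out 1 array at a time gave -2.03 to -1.89 for CYP71P1, -2.45 to -2.26 for ASMT1 and -0.25 to -0.17 for the dim probe set. Over all probe sets 11832 to 13502 were called without 1 array, against 13660 with all; the cause was not tested. Spike-in centring called 32904, 324 higher and 32580 lower, and quantile normalization 7187 higher and 6771 lower.

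Spike-in centring, which lowers every KMD value, called 9 neighbours of CYP71P1 and 2 auxin genes and also turned DAHPS2 (-0.61) and YUCCA1 (-0.40), with the values of SNAT1 (-0.48), SNAT2 (-0.37), SK1 (-0.16), ASA1 (-0.31), FIB (-0.24), NOL (-0.29), LOC4351940 (-0.29), LOC4351929 (-0.47), LOC4346799 (-0.25) and LOC4346801 (-0.072). DAHPS2 also turned without XS11 replicate 3, and ran from -0.0094 to 0.044 without 1 array. Without the trend, 1 serotonin gene and 2 auxin genes were called, and with array weights 2 auxin genes; the cause was not tested. Counting all probe sets gave 4 O-methyltransferase calls. Without 1 array, 1 to 4 neighbours of CYP71P1 and 2 to 3 serotonin genes passed. Further probe sets turned too with spike-in centring, at -0.39 for SNAT1, -0.56 for ROMT-17 and -0.49 for NOL. The replicate number as a block left 12451 calls over all probe sets, 16 of cytochrome P450 genes and 4 of senescence genes. It ended the calls of NAC2 (adjusted p = 0.068) and the second SNAT1 probe set (0.074) and no other call of a named gene that was refitted; the dim ASMT3 and THT2 were not refitted. The deviations of same-numbered arrays correlated at -0.24, -0.0085 and -0.25, and those of differently numbered arrays at -0.057 to 0.32. With 3 arrays per line, these values do not settle whether the numbers mark a pairing.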
